A study of Drosophila melanogaster with 3 samples.

Results

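Of the 4261 peaks of tagged CG12071 that passed the authors' threshold, 264 had their summit away from the promoters of protein-coding genes and either in an exon or at the start of a noncoding RNA gene (6.20%, Wilson 95% interval 5.51 to 6.96%). These exon and noncoding RNA peaks were chosen by position alone. The summit had to lie more than 500 bp from every transcription start site (TSS) of a protein-coding transcript. It also had to lie in an exon of any gene, or within 500 bp of a TSS of a gene with the biotype ncRNA. Classes were assigned in a fixed order, which gave 37 peaks in 5' UTR exons, 17 in coding exons, 47 in 3' UTR exons, 95 in exons of noncoding genes and 68 at an ncRNA TSS without an exon at the summit. They named 241 genes, of which 140 had the biotype ncRNA and 98 were protein-coding.

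The study mapped where CG12071 sits on chromatin by chromatin immunoprecipitation and sequencing (ChIP-seq). The material was whole Drosophila melanogaster embryos aged 12 to 24 hours, pooled from both sexes, in 3 biological replicates of 1 group. All 3 came from 1 transgenic line that stably expresses CG12071 with GFP at its C-terminal end, and peaks of every replicate were called against the same control. The labels are at odds, since a free-text line calls each replicate an input control while its assay and antibody entries describe an immunoprecipitation, and the reading as immunoprecipitation was used. Whole embryos mix all tissues, so more cells with binding and more binding per cell cannot be told apart. No other genotype, age or treatment was included, so the comparisons below set the exon and noncoding RNA peaks against the rest of the thresholded peaks.

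An exon is the stretch of a gene that stays in the mature RNA. It can be untranslated sequence before the start codon (5' UTR), coding sequence, untranslated sequence after the stop codon (3' UTR), or part of an RNA that is never translated. Long noncoding RNAs (lncRNAs) are transcribed by RNA polymerase II like messenger RNAs, and antisense RNAs (asRNAs) run against a gene on the other strand. Many microRNAs (miRNAs) and small nucleolar RNAs (snoRNAs) of the fly are cut out of such longer host transcripts, so the start of the host gene is also the start of the small RNA's transcription unit.

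The sequences under 5 of the strongest of these peaks come first, because they stood near the top of the pooled order. Each line gives 30 bases of the plus strand of the release 6 genome (dm6 coordinates, RefSeq copy), 5′ to 3′, centred on the summit, with the summit base in capitals. The first 4 belong to lncRNA genes and the last to a coding exon of Pde1c, a phosphodiesterase gene.
lncRNA:CR31840, chr2L:14024062-14024091: tcaatatgtacagaGtacacatgttatttg
lncRNA:Vinr, chrX:12751392-12751421: acaatattttaattTcataaacattcatgg
lncRNA:CR31044, chr3R:29214432-29214461: gttttcaagaaaccCcgaatttaaatccaa
lncRNA:CR44619, chrX:12752354-12752383: cgaaatttgaagaaAatacaaaaaaatatc
Pde1c, chr2L:11816561-11816590: ggccgcagcgccatCtgccggctccgcagc

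Of the 264, 22 held GTAAACA, the letters that forkhead proteins prefer, within 50 bp of the summit (8.33%), near the 6.64% of all thresholded peaks. Examples in exons of 4 noncoding genes are printed with GTAAACA, or its reverse complement TGTTTAC, in capitals. In mir-4962 the letters were centred 1 bp from the summit, in lncRNA:CR43126 7 bp, in lncRNA:CR46006 12 bp and in lncRNA:Hsromega 46 bp. Peaks of asRNA:CR45467 (rank 850 in the pooled list) and asRNA:CR43964 (rank 1711) also held the letters and are not printed.
mir-4962, chrX:3777409-3777438: ttccctctctcTGTTTACattgagctgttt
lncRNA:CR43126, chr3R:28588578-28588607: cattgcgcgcgTGTTTACcatagaaaacaa
lncRNA:CR46006, chr3L:10362930-10362959: tgtatatcggtTGTTTACttttacggtaaa
lncRNA:Hsromega, chr3R:21297726-21297755: taatcttatttGTAAACAtctctatatgca

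AGATAA, the letters bound by GATA factors, was held by 25 of the 264 (9.47%), near the 7.93% of all thresholded peaks, and 12 of these were at ncRNA TSSs. Examples from 4 of the 12 are printed in the same way, with AGATAA read on the other strand as TTATCT in capitals. The capitals were centred 0, 44, 6 and 3 bp from the summit in the order shown.
asRNA:CR44429, chrX:15298410-15298439: tttaagcatctTTATCTcagatttccaaat
lncRNA:CR45541, chrX:9583928-9583957: taattcttgttTTATCTttcggcaattatt
mir-9377, chrX:12665628-12665657: ataatcatgtcTTATCTattattaagttag
lncRNA:CR45888, chr3L:14662028-14662057: tatgtttttttTTATCTagtatatcctagc

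The deposited lists hold 30000 entries each for replicates 1, 2 and 3 and for the pooled alignments, ordered here by the signal value of the authors' peak caller, with rank 1 the strongest. A peak counted as supported by a replicate when a summit lay within 100 bp among that replicate's 4261 strongest entries. Replicate 3 was the weakest list, with 4015 entries that reached a q-value of 0.05, against 13828 in replicate 1 and 12616 in replicate 2. The depth of sequencing was unknown, and every interval on a share covers counting error only. Nothing in the labels says more of how the replicates were separated, so spreads between them may be partly technical.

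The exon and noncoding RNA peaks were reproduced about as often as the rest of the list. Replicates 1, 2 and 3 supported 76.1%, 79.9% and 65.2% of them, against 76.9%, 80.0% and 70.0% of the 3997 other thresholded peaks. The difference averaged −1.90 ± 2.59 percentage points (SD, n = 3), which is within the spread between replicates, and all 3 differences were below 0. Without replicate 3 it was −0.416 points. Set against promoter peaks alone the mean difference was 0.435 points, and against the other non-promoter peaks it was −3.69 points. The sign of both differences changed between replicates. In replicate 3, support was 59.3% for promoter peaks, 78.5% for intron peaks and 77.5% for intergenic peaks. For the difference from all other thresholded peaks, an exact two-sided sign-flip permutation test over the 3 replicates gave p = 0.25. That is the smallest p that 3 replicates allow. In all 3 replicates, 119 of the 264 were supported (45.1%, Wilson 95% interval 39.2 to 51.1%), against 48.7% of the other peaks and 48.5% of all thresholded peaks. Support in no replicate was found for 3 of the 264, beside 76 of all 4261 thresholded peaks.

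In strength they also sat close to the rest. Among the strongest 2130 thresholded peaks of the pooled list were 119 of the 264 (45.1%), where the whole list gives 50% by construction. The median signal value was 224.2 for exon and noncoding RNA peaks and 236.9 for the other peaks. The median rank was 2357, 2278 and 2688 in replicates 1, 2 and 3, against 2304, 2254 and 2304 for the other peaks. Expressed as a percentage of the list, the median rank was 0.512 ± 0.668 points further down (SD, n = 3; exact two-sided sign-flip permutation test, p = 0.25, the smallest possible), and 0.128 points without replicate 3.

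The spread between replicates was uneven across the 5 classes. In replicate 3, 45.9% of 5' UTR peaks, 58.8% of coding exon peaks and 57.4% of 3' UTR peaks were supported, against 69.5% of noncoding exon peaks and 76.5% of ncRNA TSS peaks. Promoter peaks of coding genes had 59.3% in that replicate, and intron peaks 78.5%. In replicate 2 the 5' UTR peaks stood at 83.8% and the 3' UTR peaks at 83.0%, so neither class was weak in every replicate. Against the other thresholded peaks, the 5' UTR class differed by −3.88, 3.75 and −24.1 points in replicates 1, 2 and 3 (exact sign-flip permutation test, p = 0.5), and its median rank in replicate 3 was 6128. The coding exon class differed by −0.387, −21.2 and −11.2 points (exact sign-flip permutation test, p = 0.25, the smallest possible), so its lowest value relative to the other peaks was in replicate 2, where it also had 58.8%.

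**Figure D1:**
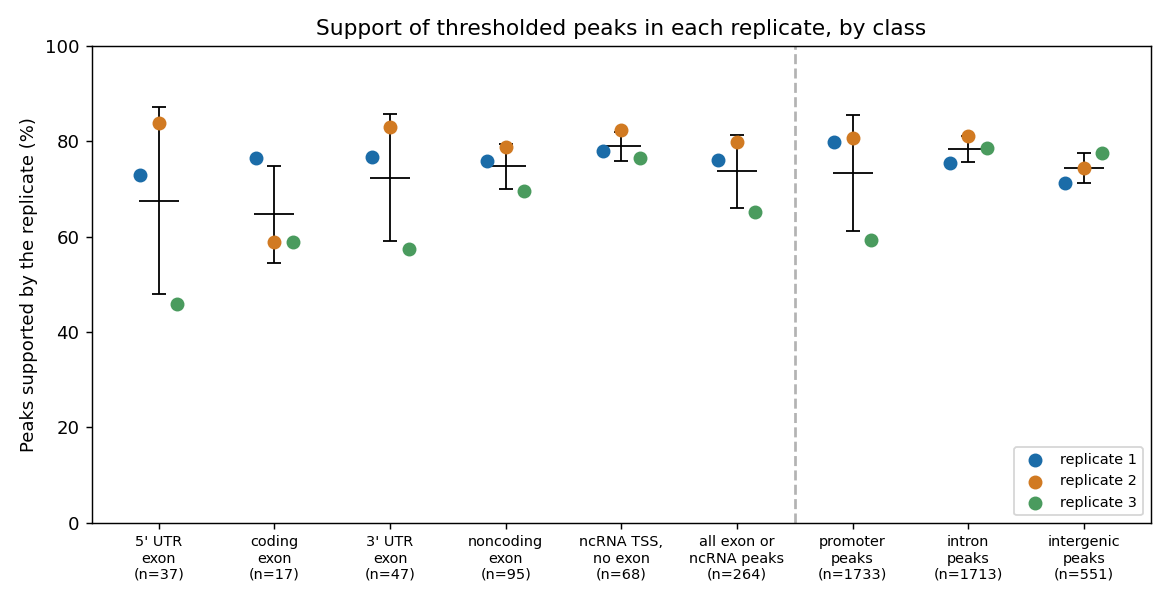
Share of peaks supported by each replicate (%, vertical axis) for the 5 classes and all 264 exon and noncoding RNA peaks, left of the dashed line, and for promoter, intron and intergenic peaks to its right. Points are replicates, and bars are the mean ± SD of the 3. Replicate 3 lies lowest for 5' UTR, 3' UTR and promoter peaks, and within a few points of the others for ncRNA TSS and intron peaks.

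Support in all 3 replicates was 32.4% in 5' UTR exons (12 of 37), 41.2% in coding exons (7 of 17), 38.3% in 3' UTR exons (18 of 47), 46.3% in noncoding exons (44 of 95) and 55.9% at ncRNA TSSs (38 of 68). Grouped by gene type, 82 of 163 peaks of noncoding genes (50.3%) and 37 of 101 peaks in exons of coding genes (36.6%) were supported throughout. The Wilson intervals of the classes overlapped, from 19.6 to 48.5% for 5' UTR exons and from 44.1 to 67.1% for ncRNA TSSs. When the 4261 strongest entries of each replicate were classified on their own, exon and noncoding RNA entries made up 6.01%, 6.48% and 6.92% of replicates 1, 2 and 3 (6.47 ± 0.458%, SD, n = 3). Noncoding exons held 2.36 ± 0.305% of these entries and coding exons 0.501 ± 0.205%.

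Noncoding exons were the largest class, and 84 of the 95 belonged to lncRNA genes and 6 to asRNA genes. The summit was in the first exon of the transcript in 78 of the 95 (82.1%). A transcript with a single exon always counts here, however far the summit lies from its start. The share of first exons among all noncoding exon sequence was not computed. The nearest coding TSS was a median 4010 bp away, and for 40 of the 95 it was more than 5000 bp away. The span of a protein-coding gene covered 22 of them.

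The strongest of all was in lncRNA:CR31840 (FBgn0051840, minus strand), an intergenic lncRNA gene of arm 2L. Its peak, at chr2L:14023907-14024370, ranked 7, 8 and 9 in replicates 1, 2 and 3 and 8 in the pooled list, with a signal value of 2770. The summit was 23 bp downstream of the start of the gene, and the nearest coding TSS, of hll, was 2925 bp away. All 3 replicates placed it among their 10 strongest entries.

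lncRNA:Vinr and lncRNA:CR44619 on X are transcribed in the same direction, and their annotated spans overlap. The Vinr peak ranked 105, 27 and 15 in replicates 1, 2 and 3, and spanned 747 bp. The strongest lncRNA:CR44619 peak ranked 97, 64 and 47 in the same order. Both were thus higher in replicate 3 than in replicate 1, unlike the UTR classes. The summit of the Vinr peak lay 461 bp upstream of the TSS of lncRNA:CR44619, so a single stretch of chromatin may count here for both genes. A second peak of lncRNA:CR44619 ranked 1109 in the pooled list.

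lncRNA:CR46035 lies within osa, which encodes a subunit of the Brahma chromatin remodelling complex. Its peak ranked 48, 48 and 68 in replicates 1, 2 and 3, and was 13952 bp from the nearest coding TSS, that of osa. By position it is also inside a coding gene, and exon and intron readings cannot be told apart for it. On 2R, lncRNA:CR44810 ranked 94, 218 and 94, at 4545 bp from the TSS of slbo, the fly C/EBP factor needed for border cell migration. Also on 2R, lncRNA:CR44371 ranked 308, 207 and 467, at 599 bp upstream of Hr51, a nuclear receptor gene.

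**Figure D2:**
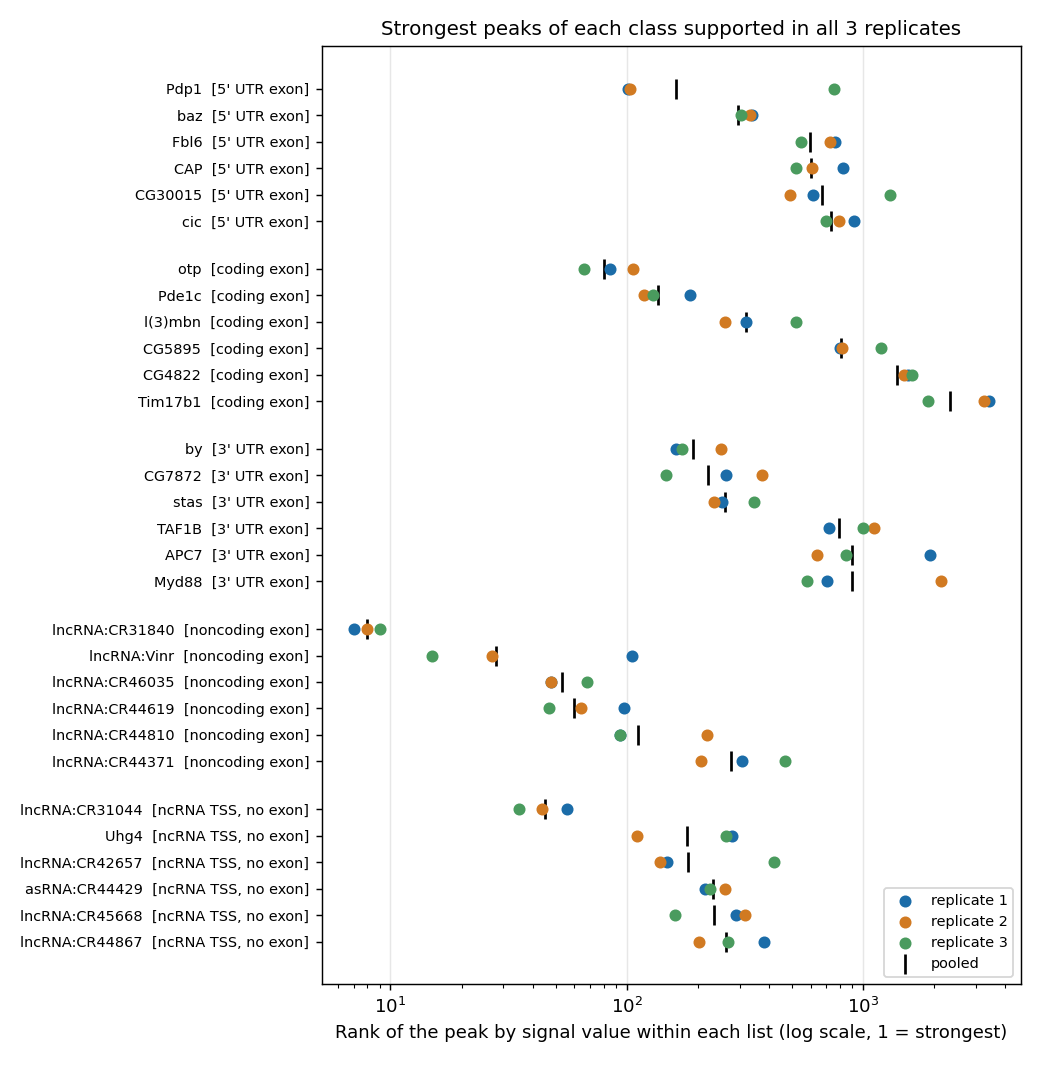
Rank of the 6 strongest peaks of each class that all 3 replicates supported, in each replicate (points) and in the pooled list (bars), on a log scale where 1 is the strongest. lncRNA:CR31840 stands at 7 to 9 in every replicate, and points that coincide, such as replicates 1 and 2 of lncRNA:CR46035 at 48, hide each other.

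Some lncRNA genes carried several peaks. lncRNA:CR43334 (FBgn0286827, 3L, 628435 to 643900, plus strand) is the primary transcript gene of bantam, a miRNA that promotes growth and blocks cell death. Its annotation has an exon that spans the whole gene, so any peak within it was exonic. The same holds for lncRNA:CR43126, lncRNA:CR43459 and lncRNA:CR43650, which appear below. In genes without such an exon, peaks in introns were not counted as exonic. lncRNA:CR43334 held 9 peaks along 15466 bp, more than any other gene in the set, and 3 of the 9 were supported in all 3 replicates. The strongest ranked 916, 541 and 653 in replicates 1, 2 and 3, with its summit at 634833, which is 7375 bp upstream of the bantam hairpin. The next 2 ranked 1597, 1822 and 940, and 2073, 3379 and 1114.

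The other 6 peaks of the bantam gene each lacked support in at least 1 replicate. The peak closest to the hairpin, with its summit 749 bp past the hairpin's 5' end, ranked 1041, 2771 and 16168. The peak whose summit was 42 bp into the gene had no entry in replicate 1 and ranked 4768 and 5231 in replicates 2 and 3, so it had no support at all although it passed the authors' threshold. The 3 supported throughout thus lay in the middle of the gene, between its start and the hairpin. None of the 9 held GTAAACA within 50 bp of the summit. The 9 summits share 1 gene and are not independent of each other.

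**Figure D3:**
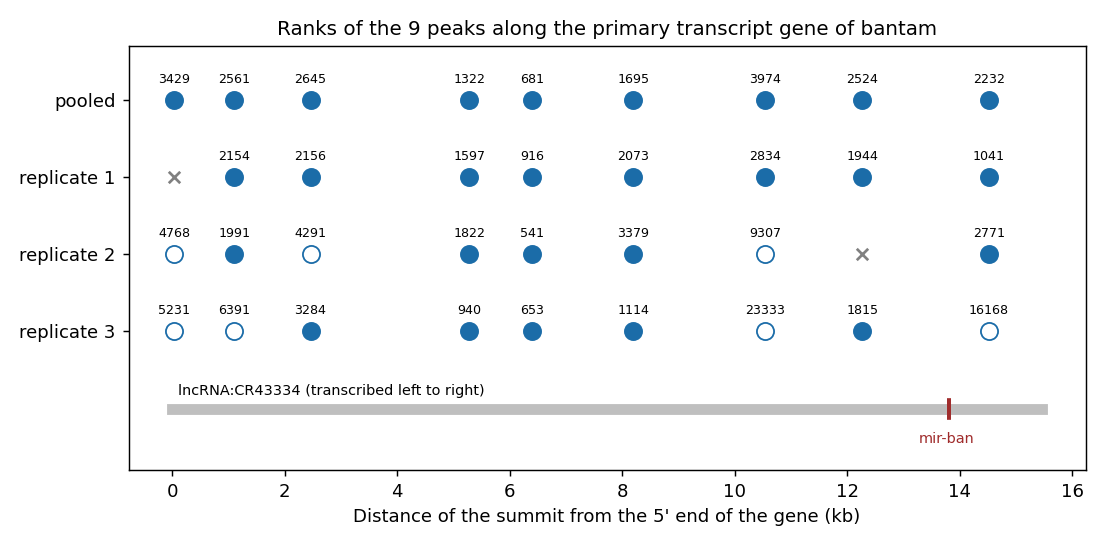
Summits of the 9 thresholded peaks in lncRNA:CR43334, by distance from the 5' end of the gene (kb), in the pooled list and in replicates 1, 2 and 3. Numbers are ranks, filled circles are ranks of 4261 or better, open circles weaker entries and crosses no entry within 100 bp. The 3 summits with filled circles in every row lie between the start of the gene and mir-ban.

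A pair of other lncRNA genes had 3 peaks each. Both also have an exon that spans the whole gene, so any peak within them was exonic. lncRNA:CR43126 lies upstream of fkh, which encodes the FoxA-type forkhead factor of the salivary gland and gut. Its peaks ranked 1352, 1185 and 3494, then 3065, 3801 and 2430, and then 4156, 3193 and 3223 in replicates 1, 2 and 3, and were 5463, 1922 and 3335 bp upstream of the fkh TSS. All 3 peaks had support in every replicate, and the best rank in the pooled list was 1518. lncRNA:CR43459 hosts mir-277 and mir-34, miRNAs studied in ageing flies. Of its 3 peaks, 1 was supported throughout (1854, 4228 and 1949), and the other two had no entry in replicate 3.

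lncRNA:Hsromega is the heat-shock-inducible lncRNA gene that organises the omega speckles of the nucleus. It contains mir-4951 and held 2 peaks, both supported in all 3 replicates. The one nearest its start, 198 bp downstream of the TSS, ranked 993, 1461 and 752. The one with GTAAACA ranked 465, 524 and 1917. The order of the 2 peaks therefore differed between replicate 3 and the other two.

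Hosts of small RNAs recurred among these genes, a grouping that was chosen after the values had been seen. The annotation holds 37 lncRNA or asRNA genes with a miRNA gene inside them on the same strand. Of these, 13 carried an exon or ncRNA TSS peak (35.1%, Wilson 95% interval 21.8 to 51.2%), against 116 of 2410 such genes without a miRNA (4.81%, 4.03 to 5.74%). The hosts were longer, with a median of 6436 bp against 712 bp, which gives a peak more room to fall in an exon. Counting the summits of all thresholded peaks within 500 bp of a TSS, those at coding promoters included, which depends less on length, 11 of the 37 hosts had such a summit (29.7%, 17.5 to 45.8%), against 158 of 2410 (6.56%, 5.64 to 7.61%). A gene counted when any of its annotated TSSs had a summit, and the number of TSSs per gene was not matched. No test was run, since the grouping followed the values, and the part of gene length, TSS number or expression was not tested.

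The strongest miRNA host was lncRNA:CR31044 on 3R, which carries mir-279 and mir-996, a related pair that restrains the formation of particular sensory neurons. Its peak, at chr3R:29214269-29214594, ranked 56, 44 and 35 in replicates 1, 2 and 3, with a signal value of 1527. The summit was 116 bp upstream of the host's TSS and 1139 bp upstream of mir-279. The gene came next after the lncRNA:CR31840 and Vinr peaks in the pooled order of all 264, at rank 45.

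Other hosts had weaker and less even peaks. lncRNA:CR43651, host of mir-14, had a peak 17 bp upstream of its TSS that ranked 368, 927 and 2868. lncRNA:CR43626, host of mir-282, ranked 4295, 1250 and 771, so support in replicate 1 was missed by a small margin. lncRNA:CR44206, host of mir-184, ranked 2839, 1489 and 27188, with the summit 8 bp upstream of a start. These 3 show the spread that a single peak can have between replicates.

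The remaining hosts gave no steadier picture. lncRNA:CR46006, host of mir-276a, had 2 peaks, of which the one with GTAAACA was supported throughout (4226, 3231 and 2117). lncRNA:CR43650, host of mir-8, had 2 peaks, neither of them supported in all 3 replicates. Hosts of mir-275, mir-281-1 and mir-281-2, mir-1000 and mir-bft had 1 peak each, between ranks 3144 and 4240 of the pooled list, with support in 1 or 2 replicates.

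At the TSSs of noncoding genes outside exons, 50 of 68 peaks were near lncRNA genes alone and 9 near asRNA genes. Uhg4 on 2R, a host gene with 7 snoRNA genes inside it, ranked 280, 111 and 262, with the summit 57 bp upstream of its TSS and 558 bp upstream of Boot. lncRNA:CR42657 ranked 148, 138 and 418, at 669 bp upstream of nej, the gene of the CBP coactivator. lncRNA:CR45668 ranked 291, 317 and 160, at 687 bp upstream of Act5C, a cytoplasmic actin gene. For these peaks the coding promoter is only just beyond the 500 bp limit, so the gene served cannot be told from position.

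asRNA:CR44429 lies within gce, which encodes a juvenile hormone receptor. Its peak ranked 214, 261 and 226 in replicates 1, 2 and 3, and lay 207 bp upstream of the asRNA's TSS and 585 bp upstream of a gce TSS, again just beyond the 500 bp limit. lncRNA:CR44867, within the span of beat-Ib, a cell surface immunoglobulin gene, ranked 379, 202 and 268, and was 5633 bp from the nearest coding TSS. The 6 strongest of this class had no rank worse than 418 in any replicate. They were chosen as the strongest with support in all 3 replicates, so high ranks were largely built in.

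The peaks sat less tightly on noncoding TSSs than promoter peaks on coding TSSs. All classes together, 124 of the 264 lay within 500 bp of an ncRNA TSS, at a median distance of 208 bp, with 12 (9.68%) within 50 bp. The 1733 promoter peaks lay a median 109 bp from a coding TSS, with 28.4% within 50 bp. Within 100 bp were 30 of the 124 (24.2%), against 46.6% of the promoter peaks, so the 124 spread over much of the window. Each distance was to the nearest annotated TSS, and the number of TSSs per gene was not matched. Of the 124, 74 (59.7%) were upstream of the ncRNA TSS. Within the TSS class, 58 of 68 were upstream, but that share is set by the rule, which puts most downstream summits into exons. The accuracy of annotated starts of ncRNA genes was not tested.

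**Figure D4:**
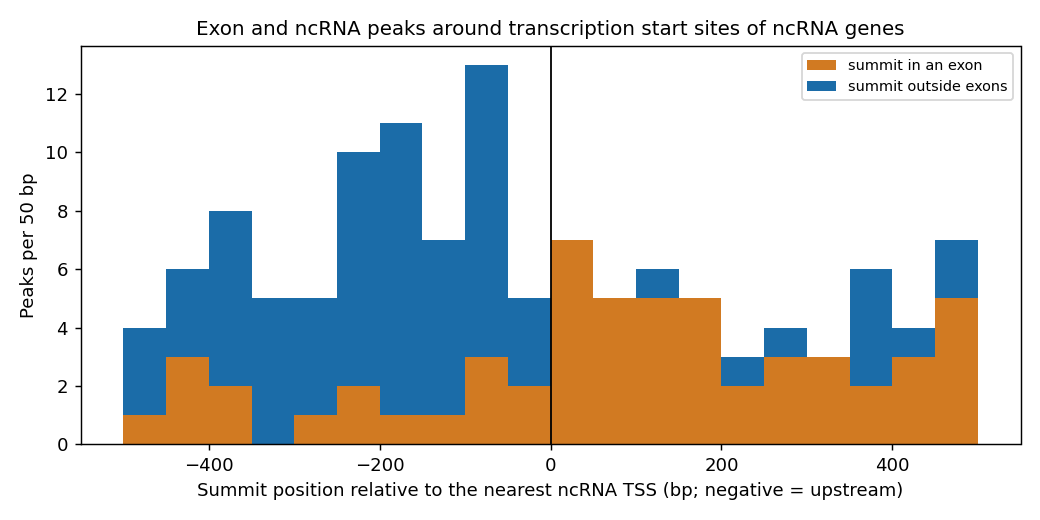
Number of exon and noncoding RNA peaks per 50 bp (vertical axis) by position of the summit relative to the nearest TSS of an ncRNA gene (bp, negative upstream), for the 124 within 500 bp. Stacked colours separate summits in an exon from those outside, and the counts spread over the whole window with no single dominant bin.

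Seen from the genes, 131 of 1944 lncRNA genes carried the summit of a thresholded peak no more than 500 bp from a TSS (6.74%, Wilson 95% interval 5.71 to 7.94%), against 1869 of 13945 protein-coding genes (13.4%). A gene counted when any of its annotated TSSs had a summit, and the number of TSSs per gene was not matched. Restricted to lncRNA genes with any TSS more than 1000 bp from a coding TSS, 91 of 1518 had a summit at such a TSS (5.99%, 4.91 to 7.30%). Other TSSs of these genes may still lie nearer to a coding TSS. For asRNA genes the same restriction left 6 of 211 (2.84%), where 38 of all 503 (7.55%) had a summit. Of 290 tRNA genes, 32 had one (Wilson 95% interval 7.93 to 15.2%), and 16 of the 211 far from coding TSSs (7.58%). Of 99 rRNA genes none had one (Wilson 95% interval 0 to 3.74%). Genes that lie close together can share a summit and are not independent, so these intervals over genes are only nominal. How reads from near-identical gene copies were placed is not known, so no bound on the rRNA share is drawn.

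Small RNA genes made up a short list. Of the noncoding exon peaks, 1 each lay in mir-4962, snRNA:7SKa, snoRNA:Psi18S-176, tRNA:Ser-CGA-1-4 and RNaseMRP:RNA. snRNA:7SKa, a gene of the 7SK RNA that holds the elongation factor P-TEFb inactive, ranked 374, 1496 and 874. mir-4962 ranked 511, 437 and 2989, with the summit 40 bp into its annotated exon and within the coding gene Tlk. Both were supported in all 3 replicates.

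The others were uneven. snoRNA:Psi18S-176 on 2R ranked 885, 1176 and 17909. RNaseMRP:RNA, the RNA of an enzyme that processes ribosomal RNA, ranked 3106, 4779 and 6028. tRNA:Ser-CGA-1-4, within hts, ranked 4144 and 5212 in replicates 1 and 2 and had no entry in replicate 3. Some tRNA, snoRNA and rRNA genes have near-identical copies, and how the authors placed reads with several matches is not given in the sources used here.

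Peaks at the TSS of a miRNA gene itself were mostly inside coding genes. mir-9378, within CG17124, ranked 649, 771 and 532. mir-9377, within Tis11, which encodes an RNA-decay protein, ranked 2998, 1160 and 416. mir-2491 ranked 2025, 2733 and 1701 and was likewise supported throughout. The annotated start of such a gene is the 5' end of the hairpin, not the start of the primary transcript.

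The remaining ones were weaker. mir-314 ranked 2062, 4423 and 2301. mir-14, whose host also had the peak given above, ranked 2242, 6087 and 7917. mir-4978, within mam, ranked 2188, 10970 and 10756, and the peak next to snoRNA:Or-ACA9, within AdamTS-A, had ranks of 4538 and 2358 in replicates 1 and 3 and no entry in replicate 2.

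Peaks in 5' UTR exons lay mostly within 1000 bp of a coding TSS, which need not be the first of the gene. The rule itself keeps them more than 500 bp away. The nearest coding TSS was 501 to 1000 bp away for 26 of 37, and belonged to the same gene for 35. The summit was in the first exon for 23. In 13 of 37 all transcripts that span the summit have an exon there, and in the rest the same position is not exonic in at least 1 of them.

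Pdp1, which encodes a PAR-domain bZIP factor of the circadian clock, had the strongest 5' UTR peak. It ranked 101, 103 and 756 in replicates 1, 2 and 3, and its summit was 518 bp from a Pdp1 TSS. baz, the Par-3 polarity gene, ranked 338, 332 and 304, and its summit was 18687 bp from the nearest coding TSS, in an exon that is not the first. The baz peak is thus far from any annotated coding start, whereas the Pdp1 peak is just past the 500 bp limit.

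The other 4 were near the limit too. CAP on 2R, an actin-linked adaptor gene, ranked 825, 610 and 520 at 563 bp from a CAP TSS, which is not the first of the gene. cic, which encodes the HMG-box repressor Capicua, ranked 912, 792 and 694 at 572 bp. Fbl6 ranked 759, 724 and 546 and CG30015 ranked 612, 490 and 1296, both on 2R.

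Coding exons held the fewest peaks, at 17. otp on 2R, a homeobox gene of brain and hindgut, had the strongest. It ranked 85, 106 and 66 in replicates 1, 2 and 3, in an exon that all 9 spanning transcripts share. Pde1c ranked 186, 118 and 129 in an exon of 2551 bp, and the GC content of 101 bp around its summit was 69.3%, with 60.4% in otp.

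The median GC content of the coding exon class was 53.5%, against 40.1% for all 264 and 38.6% for the other thresholded peaks. High GC content can itself affect ChIP-seq coverage, and its part here was not tested. l(3)mbn ranked 321, 260 and 522, with the summit 21 bp from an edge of an exon of 63 bp. CG5895 ranked 797, 818 and 1194. CG4822, whose span overlaps ND-15, ranked 1552, 1495 and 1617, and Tim17b1, a mitochondrial import gene within mtd, ranked 3401, 3253 and 1877. These 6 were the strongest of the 7 coding exon peaks supported throughout.

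In 3' UTR exons, by had the strongest of 47 peaks. by encodes the fly tensin, which links integrins to actin. It ranked 162, 250 and 171 in replicates 1, 2 and 3, held GTAAACA, and was 4366 bp from the TSS of by. A second by peak ranked 1901 in the pooled list. CG7872 ranked 263, 373 and 146, and stas ranked 252, 233 and 344. For these 3 genes the nearest coding TSS was their own.

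Some 3' UTR peaks were nearer to another gene's TSS than to their own. The nearest coding TSS belonged to another gene for 21 of 47, and 12 of these 21 summits were upstream of it. TAF1B, a factor of RNA polymerase I, ranked 716, 1107 and 998, and its peak was 664 bp upstream of tws, a phosphatase subunit gene. APC7, a subunit of the anaphase-promoting complex, ranked 1917, 636 and 850, at 605 bp upstream of pigs. Myd88 on 2R, the adaptor of the Toll receptor, ranked 701, 2140 and 579, and was 5336 bp from its own TSS.

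Motifs were sought in 101 bp around each summit on both strands, and in windows of the same width centred 300 bp to each side. The list held 10 motifs and 6 words of 8 letters taken from the other peaks, and GTAAACA was added after those words had been seen, so 17 were looked at. GTAAACA was held by 22 of the 264 (8.33%, Wilson 95% interval 5.57 to 12.3%), against 6.53% of the other peaks and 6.64% of all thresholded peaks. In the flanks the share was 2.27% for exon and noncoding RNA peaks and 2.71% for the other peaks. Since GTAAACA was chosen from words found at the summits of the other peaks, their excess over the flanks was built in. The interval of the exon and noncoding RNA peaks contained the share of the other peaks. TGTAAACA, which contains it, was held by 3.41%, against 2.60% of the other peaks and 2.65% of all.

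By class, GTAAACA was held by 7 of 37 5' UTR peaks (18.9%, 9.48 to 34.2%), 5 of 47 3' UTR peaks (10.6%), 2 of 17 coding exon peaks, 6 of 95 noncoding exon peaks (6.32%) and 2 of 68 ncRNA TSS peaks (2.94%, 0.810 to 10.1%). The 5' UTR and ncRNA TSS intervals overlapped narrowly, and each count is below 10. Of the 22, 11 were supported in all 3 replicates.

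AGATAA had the opposite order in the 5' UTR and ncRNA TSS classes. It was held by 12 of 68 ncRNA TSS peaks (17.6%, 10.4 to 28.4%) and by 0 of 37 5' UTR peaks (0 to 9.41%). The coding exon share was also 17.6% (3 of 17, 6.19 to 41.0%), with 6.38% in 3' UTR exons and 7.37% in noncoding exons. These stand beside 9.47% of all 264, 7.83% of the other peaks and 7.93% of all thresholded peaks. In the flanks of the ncRNA TSS peaks the share was 6.62%. The ncRNA TSS class was singled out after its values had been seen, among 17 motifs and 5 classes, and no test was made.

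GAGAGAG, the site of the GAGA factor, was in 14 peaks (5.30%, 3.18 to 8.70%), against 3.00% of the other peaks and 3.14% of all. The interval lay just above both shares, no test was made, and the flanks of the 264 had 3.41%. TATCGATA, the site of the promoter factor DREF, was in none of the 264, beside 0.634% of all thresholded peaks. AATATTTG was in 3.79%, beside 3.75% of all, and AGTAAATA in 2.65%, beside 2.44% of all. A match describes letters in the window and is not a bound site.

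**Figure D5:**
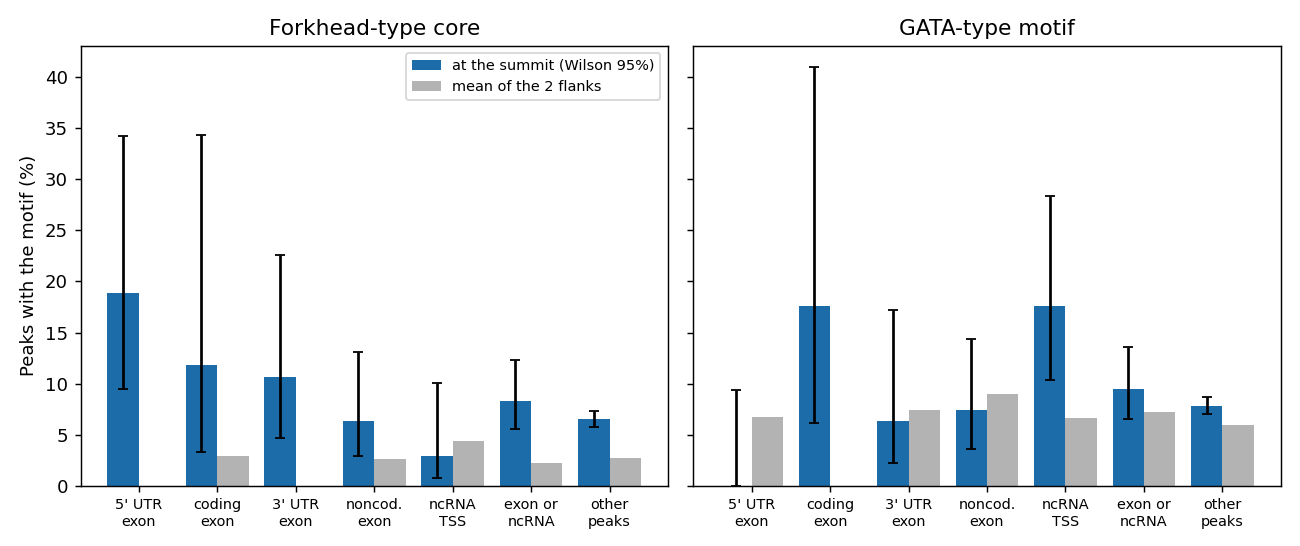
Share of peaks (%) with GTAAACA (left, forkhead-type) and AGATAA (right, GATA-type) in 101 bp at the summit, with Wilson 95% intervals, and in the flanks 300 bp away (grey, mean of both sides). The 5 classes and all exon and noncoding RNA peaks come first and the other thresholded peaks last, and wide intervals mark the small classes.

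Neighbouring peaks were about as common as in the whole list. Another thresholded summit lay within 2000 bp of 107 of the 264 (40.5%), against 35.3% of all thresholded peaks. By arm, 68 were on 3R, 63 on 2R, 45 each on 2L and 3L, 43 on X and 0 on 4, which holds 4 thresholded peaks in all.

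The limit of 500 bp decided the nearest cases. Just inside the coding TSS limit was a peak in CG15247 at 501 bp, followed by one at 505 bp. Just outside it were peaks near lncRNA:CR45668, 484 bp from Act5C, and near asRNA:CR43243, 475 bp from CG10433. At the ncRNA TSS limit, lncRNA:CR45277 at 478 bp and lncRNA:CR44409 at 477 bp were inside, and lncRNA:CR44828 at 509 bp and lncRNA:CR43716 at 520 bp outside.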

How the data were processed

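Embryo chromatin of the 3 replicates was sheared to fragments of 200 to 800 bp and mapped to dm6, per the labels. The records deposited with each sample state that each replicate, and the pooled alignments, were called against 1 control and that a threshold on irreproducible discovery rate was then applied, leaving 4261 peaks. No aligner or peak caller is given in the sources used here. The deposited score is the peak caller's signal value, of unstated scale, used only to rank entries within a list. The deposited −log10 q-value was used only to count entries at 0.05 or less.

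Summits were classified with Ensembl release 115 (BDGP6.54), without transposable elements, whose coordinates match dm6 and the RefSeq release 6 genome. The members, lists and named-gene rule were chosen with earlier results of these data known. Named are the 6 strongest supported peaks per class, ncRNA genes with a name other than a CR number, small RNA genes, genes with 3 or more peaks, and the cases nearest the limits. Further hosts of miRNAs were named after their values were seen. A peak without an entry in a replicate took the rank after the last. Intervals are Wilson 95%, and the exact sign-flip test ran over 3 replicates. Other distances, windows, support rules and single replicates left out were tried. The work used matplotlib 3.10.9, statsmodels 0.14.6, SciPy 1.17.1, pandas 2.3.3 and NumPy 2.4.6 under Python 3.11.15. Class assignment, TSS distances and genome coordinates were tested at annotated or random positions with known answers. The sequence under 1 strong peak is not reported here.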

Additional observations from a re-analysis of the deposited data

How the results depend on the processing

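The number of 5' UTR peaks depended most on the coding TSS limit, with 64 at 250 bp and 11 at 1000 bp against 37 at 500 bp. The ncRNA TSS class had 40 peaks with a window of 250 bp, 128 with 1000 bp and 0 when only exons counted. The strongest 2130 thresholded peaks held 119 exon and noncoding RNA peaks, with 18 in 5' UTR exons, 6 in coding exons, 18 in 3' UTR exons, 41 in noncoding exons and 36 at ncRNA TSSs, fewer by construction. Support in all 3 replicates was 36.7% within 50 bp, 59.1% among entries with a q-value of 0.05 or less and 81.4% among all entries. Leaving out 1 replicate gave 52.3 to 61.4%, higher because only 2 replicates are then required. The mean difference in support reversed to 0.435 points against promoter peaks alone, where its sign changed between replicates, and the cause was not tested. Against all other peaks it was −2.80 to −0.416 points when 1 replicate was left out. It shrank most, to −0.416, without replicate 3. The median rank difference then was 0.128 points, against 0.729 without replicate 2. GTAAACA was held by 4.92% in a window of 50 bp, which is narrower by construction. All other alternatives run for these class counts, for support, for ranks and for GTAAACA stayed within 1.5 times the count, on the same side of 0 or within the interval. AGATAA was held by 4.17% in a window of 50 bp and 17.4% in 200 bp, against 9.47%. Over all motifs but GTAAACA, 11 values left the main interval and 69 stayed in it. No paired analysis was possible because there is 1 group. Depth was unknown, and 3 replicates cannot give a p below 0.25.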
